A study of Homo sapiens with 21 samples.

Results

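The iron- and 2-oxoglutarate-dependent dioxygenases described here are 44 human genes, chosen by gene symbol from enzyme families of histone, DNA and RNA demethylases and of prolyl, lysyl and asparaginyl hydroxylases. All 44 were found among the 54042 genes counted. The rule for membership uses no expression value, although the list was drawn up with earlier results of these data known. They were measured in MV4-11, a leukaemia cell line labelled as biphenotypic B myelomonocytic, by QuantSeq, which counts 1 tag near the 3′ end of each polyadenylated transcript captured. There were 21 libraries in 7 groups of 3: wild type cells in the solvent DMSO, in ironomycin (also called AM5, a salinomycin derivative) for 6 h and in ironomycin for 24 h; HK2 knockout cells in DMSO and in ironomycin for 24 h; and PGP knockout cells in DMSO and in ironomycin for 24 h. HK2 encodes hexokinase 2, which phosphorylates glucose, and PGP encodes phosphoglycolate phosphatase. All groups share the line and its growth medium. The labels give neither the dose, the time in DMSO, nor the clones behind each knockout, and there was no knockout group at 6 h.

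These enzymes bind ferrous iron in the active site, split molecular oxygen, and convert 2-oxoglutarate to succinate while they hydroxylate their substrate. In the demethylases the hydroxylated methyl group leaves as formaldehyde, so the same chemistry removes methyl marks from histones, DNA and RNA. The EGLN prolyl hydroxylases and HIF1AN mark the alpha subunits of hypoxia-inducible factor (HIF) in the presence of oxygen, and several dioxygenase genes are themselves known HIF targets. Iron chelators are known to inhibit the enzymes. The libraries measured transcripts, not enzyme activity.

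Of the 44 genes, 37 had enough counts to be tested, and the rest had few counts or none. A 0 in these files need not mean that a gene is silent: NCOA4 and KMT2B, which most cells express, were also at 0 in all 21 libraries, and whether counting or annotation set such values was not tested. Levels are given in CPM, the counts of a gene scaled to a common effective library size, and are compared within a gene. Changes are log2 fold changes ± SE with n = 3 libraries per group. A gene was called when its adjusted p in edgeR's quasi-likelihood test, adjusted over all 11610 genes tested, was under 0.05. Nothing in the labels tells whether replicates came from separate cultures, and the p-values then reflect only how far these libraries spread, which may be technical. The wild type comparisons at 6 h and 24 h share their DMSO libraries.

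Total counts lay between 3829274 and 6069264 per library, and 3 counts, the limit that a count of 0 allows, equalled 0.494 to 0.783 CPM of the plain total. The lineage markers FLT3, CD33, HOXA9, MEIS1, SPI1 and CD4 were present in all 21 libraries, and LYZ was at 0 to 2.01 CPM. Markers of other cell types were low: summed per library, the 3 fibroblast markers reached at most 0.85 CPM and the 2 epithelial markers 0.166, with COL3A1 and EPCAM at 0. Erythroid and T cell markers summed to at most 1.96 and 1.06 CPM outside the PGP knockout at 24 h. In that group the erythroid sum was 0.628 to 5.65 CPM, mostly HBB in replicates 2 and 3, and the T cell sum (CD3E and CD3D) was 0 to 3.72, from replicate 2, and their part in the results there was not tested. HK2 stood at 42.4 to 69.5 CPM in wild type DMSO and 20.0 to 24.8 in the HK2 knockout, and PGP at 86.8 to 95.5 against 71.0 to 83.6 in the PGP knockout. A 3′ tag can persist after a knockout and checks neither label. The share of counts on 13 mitochondrial messenger RNAs averaged 5.72% with DMSO, 3.97% after 6 h and 2.36% after 24 h in wild type, and went from 6.37% to 3.09% in the HK2 knockout and from 6.90% to 2.84% in the PGP knockout. The nuclear RNA MALAT1 moved the other way, from 0.254% to 0.344% and 0.646% in wild type. The part of these shifts in the changes below was not tested. Among the wild type 6 h libraries, replicate 2 stood apart from the others. There 12 of the 37 tested dioxygenase genes deviated by at least 0.5 (log2 of CPM + 1) from the mean of the other 6 h libraries. So did 3898 of all 11610 genes. Without that library, 6 of the 37 genes rose and 2 fell at 6 h, and the fall that was lost is ALKBH2.

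At 6 h in wild type cells, 6 dioxygenase genes rose and 3 fell. That is 24.3% of the 37, against 22.0% of all genes called in that comparison (10.9% higher and 11.1% lower). At 24 h in wild type, 4 rose and none fell (10.8%, against 29.8% of all genes). In the HK2 knockout at 24 h, 5 rose and none fell (13.5%, against 29.4%), and in the PGP knockout 8 rose and 1 fell (24.3%, against 31.5%). The share of dioxygenase genes called was thus near the transcriptome's at 6 h and below it in each 24 h comparison. In the main fit the genes called at 24 h were rises with 1 exception, whereas calls over all genes split more evenly (15.3% higher and 14.6% lower in wild type, 15.9% and 13.5% in the HK2 knockout, 16.1% and 15.4% in the PGP knockout). With RLE size factors or in DESeq2, 7 dioxygenase genes rose and 2 fell in the PGP knockout. The median change of the 37 genes was 0.08 at 6 h and 0.04 at 24 h in wild type, 0.16 in the HK2 knockout and 0.12 in the PGP knockout, beside 0.02, 0.03, 0.03 and 0.04 over all genes.

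**Figure D1:**
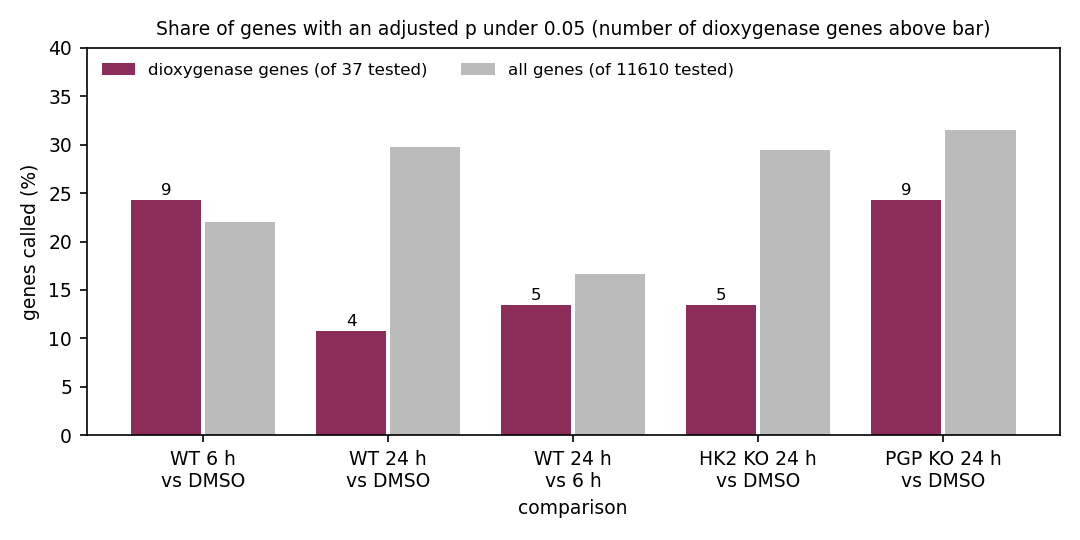
Share of genes called in each comparison (percent, from 0), for the 37 tested dioxygenase genes and for all 11610 genes, with the number of dioxygenase genes above each bar. The dioxygenase share was 24.3% against 22.0% at 6 h in wild type and 10.8% against 29.8% at 24 h.

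Summed over the 44 genes, wild type libraries held 1365 ± 24.1 CPM with DMSO (SD, n = 3), 1502 ± 51.8 after 6 h and 1492 ± 29.6 after 24 h. The sum went from 1343 ± 33.8 to 1501 ± 113 CPM in the HK2 knockout and from 1338 ± 35.2 to 1509 ± 45.5 in the PGP knockout. In each of these comparisons the treated libraries lay above the DMSO libraries, and no test was made of the sums. The histone demethylases held most of the sum, at 806 ± 24.4 CPM in wild type cells with DMSO, 980 ± 48.4 after 6 h and 936 ± 36.1 after 24 h. In bulk samples, fewer cells that express a gene and less of its RNA per cell cannot be told apart.

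**Figure D2:**
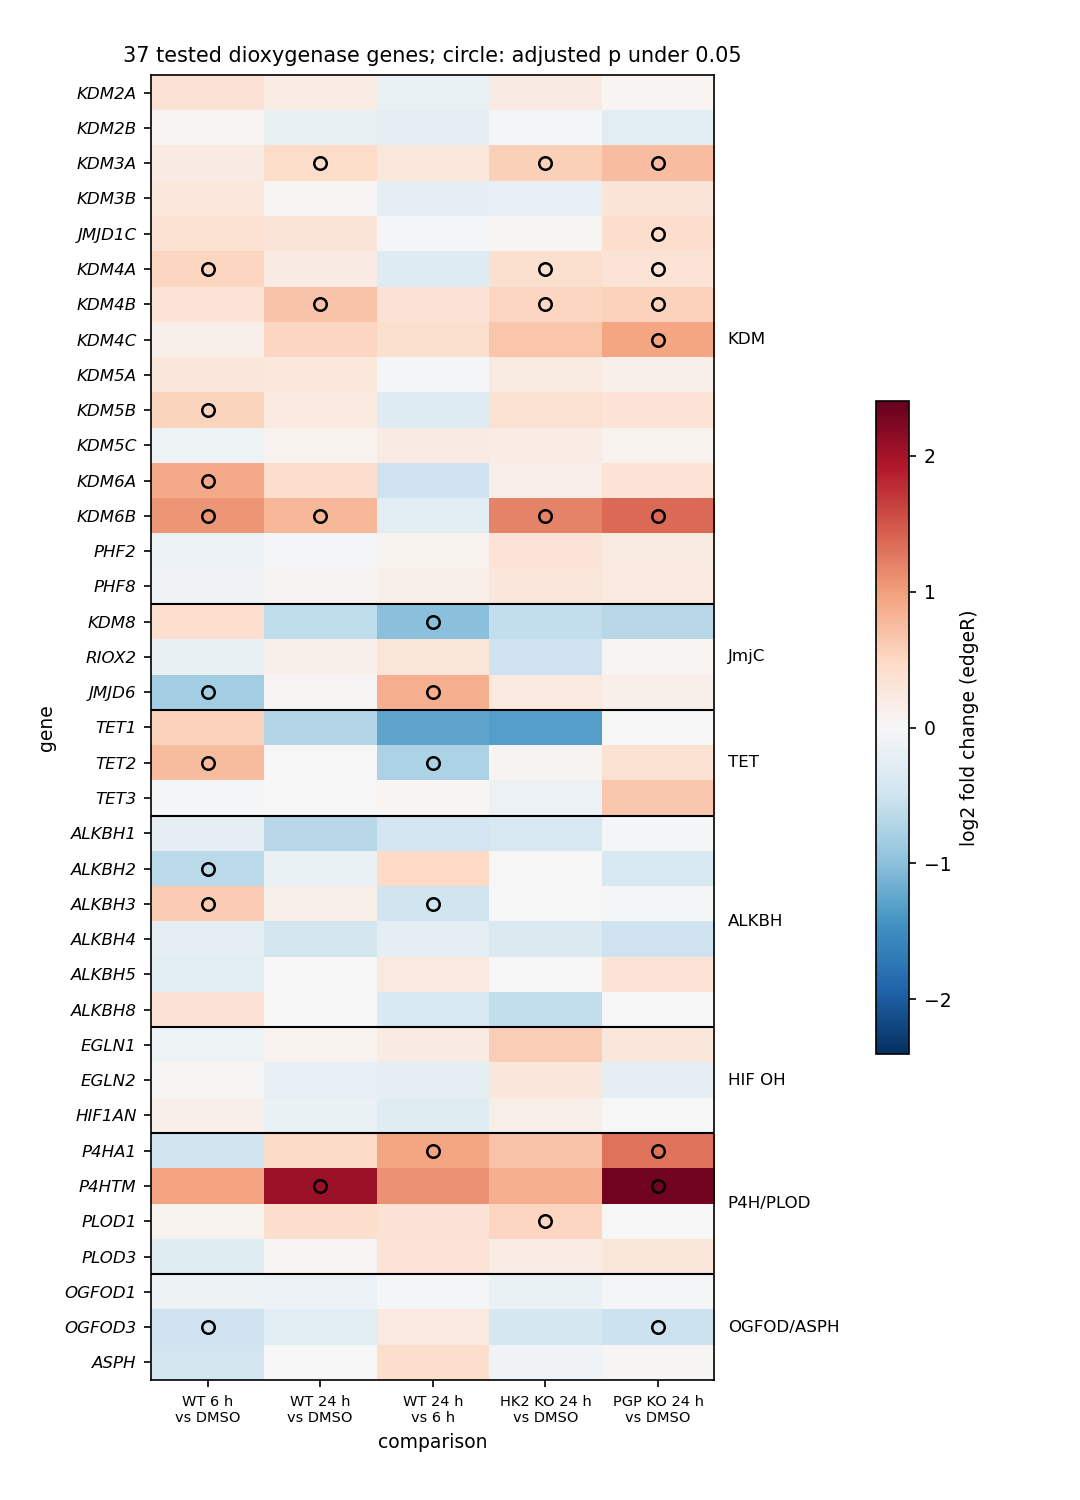
Log2 fold change (edgeR, colour scale) of the 37 tested dioxygenase genes, grouped by class, in 5 comparisons, with a circle at each adjusted p under 0.05. Rises of KDM3A, KDM4B and KDM6B carry circles at 24 h in all 3 genotypes, and the HIF hydroxylases carry none.

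With the main fit, all calls of Jumonji histone demethylases against DMSO were rises. KDM2B was called as a fall in the PGP knockout under some alternative settings, as given below. Of 15 tested, 4 rose at 6 h (26.7%, against 22.0% of all genes called) and 3 at 24 h in wild type (20.0%, against 29.8%). The HK2 knockout had 4 rises (26.7%, against 29.4%) and the PGP knockout 6 (40%, against 31.5%), and none was called from 6 h to 24 h. The class median was 0.27 at 6 h, 0.24 at 24 h in wild type, 0.26 in the HK2 knockout and 0.32 in the PGP knockout. KDM3A, KDM4B and KDM6B were called at 24 h in all 3 genotypes. KDM3A and KDM4B remove methyl groups from a repressive lysine of histone H3, and KDM6B removes those placed by the Polycomb enzyme EZH2. Their promoters, the 250 bases before the first listed start site (RefSeq, GRCh38.p14), are shown because these genes rose together; capitals mark ACGTG or GCGTG on either strand, the core letters of the HIF binding site, where CACGTG holds ACGTG on both strands.
KDM3A (chr2:86441121-86441370, plus strand): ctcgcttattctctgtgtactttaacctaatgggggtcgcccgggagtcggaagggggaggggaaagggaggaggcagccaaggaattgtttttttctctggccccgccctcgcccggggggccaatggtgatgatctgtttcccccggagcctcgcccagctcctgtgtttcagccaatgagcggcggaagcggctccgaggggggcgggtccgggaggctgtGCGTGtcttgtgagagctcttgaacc
KDM4B (chr19:4968863-4969112, plus strand): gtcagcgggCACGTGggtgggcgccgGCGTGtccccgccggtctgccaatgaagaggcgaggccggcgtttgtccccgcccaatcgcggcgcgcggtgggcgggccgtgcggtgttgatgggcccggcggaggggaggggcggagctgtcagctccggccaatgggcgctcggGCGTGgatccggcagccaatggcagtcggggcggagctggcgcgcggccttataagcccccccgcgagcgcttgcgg
KDM6B (chr17:7833967-7834216, plus strand): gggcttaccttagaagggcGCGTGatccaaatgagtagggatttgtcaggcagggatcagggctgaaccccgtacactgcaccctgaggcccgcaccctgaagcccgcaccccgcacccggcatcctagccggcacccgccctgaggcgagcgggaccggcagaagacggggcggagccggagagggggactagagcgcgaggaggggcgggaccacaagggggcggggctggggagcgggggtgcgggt
KDM4B held the motif in 3 stretches, and KDM3A and KDM6B in 1 each, both as GCGTG. At least one of the 2 motifs stood in 24 of the 40 dioxygenase promoters that the table held (60%) and in 43.1% of 27305 promoters of the same length. ACGTG alone stood in 25.0% of the 40 and 18.7% of all, and GCGTG in 47.5% and 31.9%. CACGTG, the E-box, stood in 6 of the 40 and in 6.49% of all. The letters TGATGNAA, a core of the ATF4 composite site, stood in none of the 40 and in 3.19% of all promoters, and GAANNTTC, from the heat shock element, in 2 of the 40 and in 5.85% of all. Both strands were searched. The 27305 promoters were not matched to the dioxygenase promoters for base composition or expression, and differences between the shares were not tested. A match is a description of the letters and not a bound site.

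KDM6B (ENSG00000132510) was the demethylase with the smallest adjusted p at 6 h. Its wild type DMSO libraries read 18.6, 15.4 and 17.6 CPM, those at 6 h 43.8, 24.2 and 39.4, and those at 24 h 26.7, 35.3 and 27.99. Every treated library lay above every DMSO library at both times. The rise was 1.06 ± 0.19 at 6 h (edgeR, adjusted p = 0.0003945) and 0.80 ± 0.19 at 24 h (edgeR, adjusted p = 0.003008). In the HK2 knockout it went from 12.3, 14.9 and 12.9 CPM to 25.4, 35.996 and 29.9, a rise of 1.18 ± 0.20 (edgeR, adjusted p = 0.0001038). In the PGP knockout it went from 10.2, 15.1 and 14.3 CPM to 34.1, 33.5 and 34.5, a rise of 1.36 ± 0.20 (edgeR, adjusted p = 2.153e-05). KDM6B was called under each alternative setting run in all 4 comparisons.

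KDM4B (ENSG00000127663) was called at 24 h and not at 6 h. DMSO libraries of wild type read 49.7, 60.5 and 53.1 CPM, 6 h libraries 60.6, 87.5 and 57.9, and 24 h libraries 94.5, 82.3 and 84.8. At 6 h one 6 h library overlapped the DMSO range and the gene was not called (0.33 ± 0.14, edgeR, adjusted p = 0.09362). At 24 h the libraries separated and the rise was 0.68 ± 0.14 (edgeR, adjusted p = 0.0006953). It was 0.52 ± 0.14 in the HK2 knockout (edgeR, adjusted p = 0.007602) and 0.56 ± 0.14 in the PGP knockout (edgeR, adjusted p = 0.003851). The HK2 knockout call was lost without its 24 h replicate 2 (adjusted p = 0.0643, edgeR).

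KDM3A (ENSG00000115548) had the smallest of the shared 24 h rises in wild type. Its DMSO libraries read 20.5, 26.9 and 27.4 CPM, those at 6 h 30.1, 20.1 and 35.2, and those at 24 h 33.7, 32.5 and 35.8. The 24 h libraries all lay above DMSO and the 6 h libraries spanned it. The 24 h rise was 0.45 ± 0.16 in wild type (edgeR, adjusted p = 0.04154), and this call was lost without DMSO replicate 1 or 2 or without any 1 of the 24 h libraries (adjusted p = 0.0606 to 0.209, edgeR), and with no low-count filter (adjusted p = 0.117, edgeR). The gene rose by 0.57 ± 0.16 in the HK2 knockout (25.2, 27.5 and 27.5 CPM to 39.4, 38.9 and 40.6; edgeR, adjusted p = 0.01016). In the PGP knockout it rose by 0.74 ± 0.17 (23.8, 18.5 and 19.1 CPM to 34.3, 35.8 and 31.8; edgeR, adjusted p = 0.001746). Both knockout calls held under each alternative setting run.

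**Figure D3:**
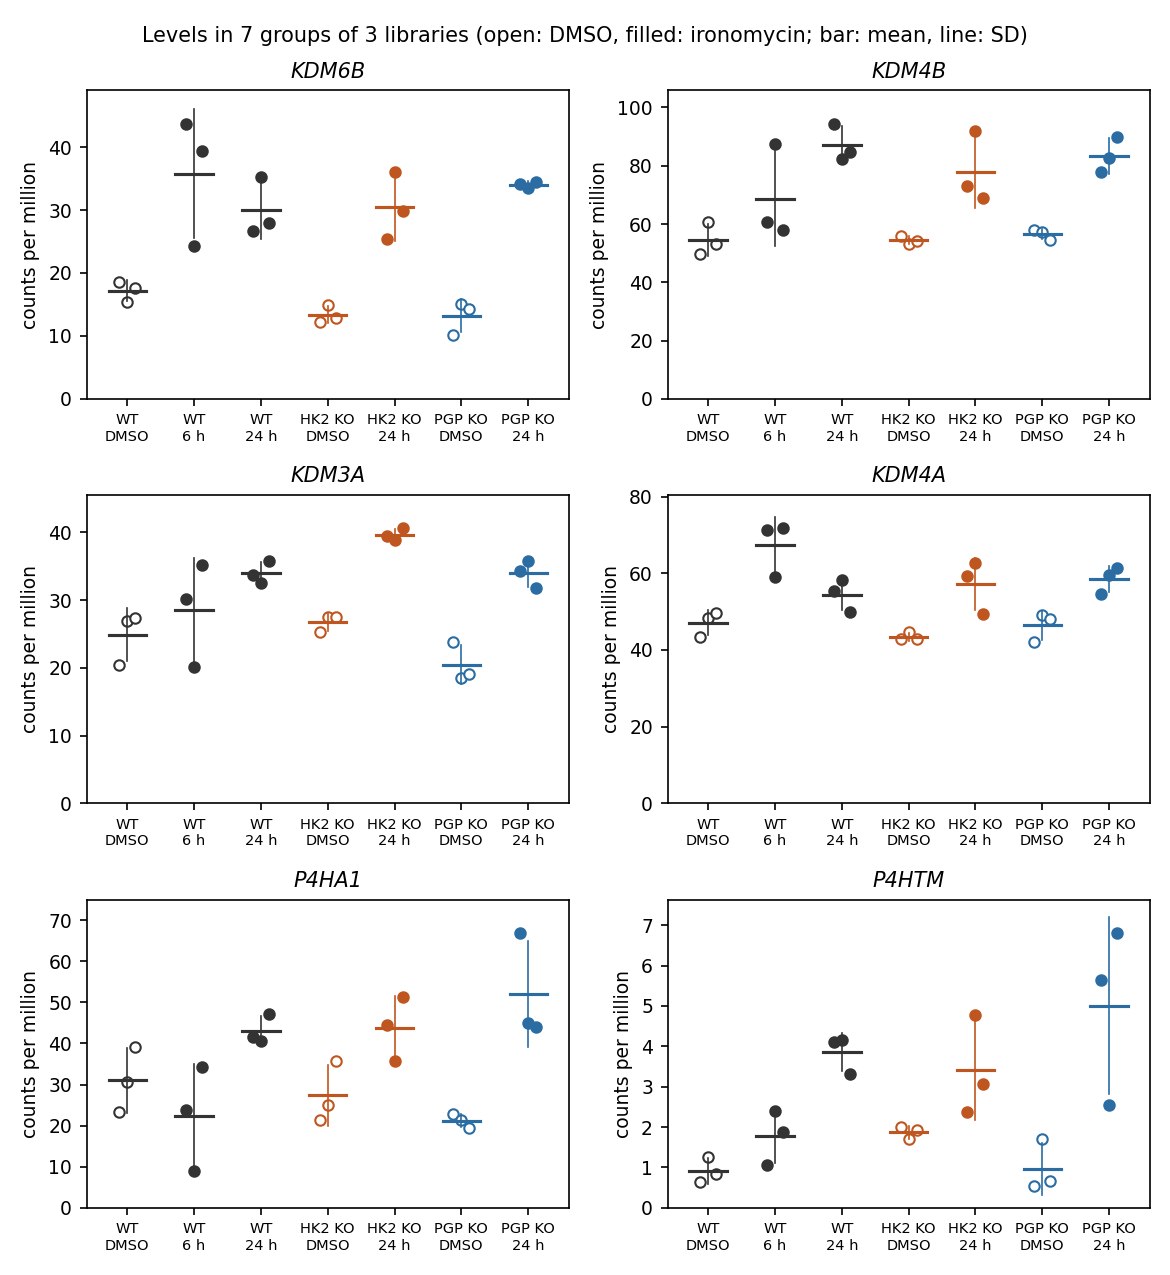
Level (CPM, linear axis from 0) of KDM6B, KDM4B, KDM3A, KDM4A, P4HA1 and P4HTM, each called at 24 h in at least 1 genotype (P4HA1 in the PGP knockout alone). There is 1 point per library in the 7 groups, open for DMSO and filled for ironomycin, with the mean as a bar and the SD as a line. KDM6B lay between 10.2 and 18.6 CPM in the 9 DMSO libraries and between 24.2 and 43.8 in the 12 treated libraries.

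Among the other demethylases, KDM6A, which removes the same Polycomb mark as KDM6B, stood highest in the 6 h libraries. It read 7.94, 7.93 and 8.79 CPM in wild type DMSO, 16.4, 14.4 and 15.6 at 6 h, and 10.9, 14.3 and 7.78 at 24 h. The 6 h libraries lay above all DMSO libraries and the 24 h libraries overlapped them. The 6 h rise was 0.91 ± 0.21 (edgeR, adjusted p = 0.003456), and the 24 h value was 0.41 (edgeR, adjusted p = 0.1607). The difference between 24 h and 6 h was not called for KDM6A.

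KDM4A, a relative of KDM4B, read 43.4, 48.4 and 49.6 CPM in DMSO, 71.3, 58.9 and 71.8 at 6 h, and 55.3, 58.1 and 49.96 at 24 h in wild type. Its 6 h rise was 0.51 ± 0.12 (edgeR, adjusted p = 0.002858), with no overlap of libraries. It was also called at 24 h in the HK2 knockout (0.39 ± 0.12, edgeR, adjusted p = 0.01472) and in the PGP knockout (0.33 ± 0.12, edgeR, adjusted p = 0.03558), and not at 24 h in wild type (0.21, edgeR, adjusted p = 0.199). The knockout calls were fragile. That of the HK2 knockout was lost without its DMSO replicate 3 (adjusted p = 0.0535, edgeR) or its 24 h replicate 2 (adjusted p = 0.079, edgeR), and with no low-count filter. That of the PGP knockout was lost without any 1 of its DMSO libraries or its 24 h replicate 2 or 3 (adjusted p = 0.051 to 0.156, edgeR), in DESeq2, with no filter, and in the compared groups alone. An antisense gene, KDM4A-AS1, lies on the opposite strand at 0.419 to 3.40 CPM, and how strand was handled in counting is not given in the sources used here.

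KDM5B, which removes methyl groups from the lysine mark of active promoters, was the remaining 6 h rise of the class, at 0.54 ± 0.14 (51.3 CPM on average in DMSO and 74.5 at 6 h; edgeR, adjusted p = 0.008972). Leaving out replicate 3 of the wild type DMSO libraries ended the call (adjusted p = 0.0613, edgeR). At 24 h the values were 0.24 in wild type, 0.36 in the HK2 knockout and 0.32 in the PGP knockout, none of them called. With the replicate number as a block in the PGP knockout, KDM5B was called there (adjusted p = 0.0486, edgeR), as was KDM2B as a fall (main value -0.25, block adjusted p = 0.0499, edgeR). In all, KDM2B was called as a fall in that comparison under 4 of 11 alternative settings.

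A pair of demethylases were called in the PGP knockout alone, and the difference between genotypes was called for neither. KDM4C went from 3.48, 4.46 and 2.63 CPM to 7.54, 6.74 and 6.23, a rise of 0.95 ± 0.33 (edgeR, adjusted p = 0.0302). It stood at 0.51 in wild type and 0.67 in the HK2 knockout, not called. The PGP call was lost without DMSO replicate 1 or 3 or 24 h replicate 1 or 2 (adjusted p = 0.0625 to 0.147, edgeR). JMJD1C, a KDM3A relative, was called at 0.42 ± 0.15 (edgeR, adjusted p = 0.04165), although 24 h replicate 3 at 79.3 CPM lay below DMSO replicate 1 at 84.3. That call was lost without any 1 library of the comparison except 24 h replicate 3 (adjusted p = 0.0501 to 0.223, edgeR), with RLE size factors, and in the compared groups alone.

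The remaining tested demethylases, KDM2A, KDM2B, KDM3B, KDM5A, KDM5C, PHF2 and PHF8, were called in none of these comparisons with the main fit. KDM7A had 34 counts in all 21 libraries and was not tested. Summed over the 3 libraries of a group, wild type cells gave 1 count with DMSO, 8 after 6 h and 5 after 24 h. The HK2 knockout gave 0 with DMSO and 5 after 24 h, and the PGP knockout gave 2 with DMSO and 13 after 24 h. The ratio of these summed counts to those with DMSO, scaled by the plain library totals, was 8.57 (95% exact interval 1.15 to 380) at 6 h in wild type. It was 5.38 (0.602 to 254) at 24 h in wild type and 6.27 (1.42 to 57.2) in the PGP knockout. In the HK2 knockout the gene was at least 1.85-fold higher than the limit of 3 counts over the DMSO group. The intervals and the limit cover counting error only, and the last ratio takes the 5 counts at 24 h as observed.

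Of the other JmjC proteins, JMJD6 and KDM8 moved between 6 h and 24 h. JMJD6 (ENSG00000070495), a lysyl hydroxylase of splicing factors, had the smallest adjusted p of the falls at 6 h. It read 36.5, 30.3 and 36.8 CPM in wild type DMSO, 20.3, 17.9 and 19.9 at 6 h, and 30.2, 41.1 and 35.0 at 24 h. The 6 h libraries lay below all others and the 24 h libraries spanned the DMSO range. JMJD6 fell by 0.84 on the log2 scale at 6 h (± 0.17, edgeR, adjusted p = 0.000864) and was 0.87 ± 0.17 higher at 24 h than at 6 h (edgeR, adjusted p = 0.0008046). Both calls held under each alternative setting run. Its 24 h value was 0.04 in wild type, 0.24 in the HK2 knockout and 0.12 in the PGP knockout, not called.

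KDM8 was low in counts, at 2.71, 5.01 and 4.98 CPM in DMSO, 4.70, 6.11 and 6.00 at 6 h, and 2.26, 3.37 and 2.72 at 24 h. It was not called against DMSO at either time. Between 24 h and 6 h it fell by 1.002 (± 0.32, edgeR, adjusted p = 0.03175), a call lost without 6 h replicate 2 or 3 or 24 h replicate 1 or 3 (adjusted p = 0.0616 to 0.103, edgeR), with no filter, and in the compared groups alone. RIOX2 was not called in any comparison, and RIOX1, whose exons overlap HEATR4 on the opposite strand, was listed at 0 in all 21 libraries.

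The TET enzymes oxidise methylcytosine in DNA. TET2 read 18.2, 19.8 and 16.4 CPM in wild type DMSO, 33.3, 28.8 and 30.0 at 6 h, and 24.2, 15.3 and 14.97 at 24 h. All 6 h libraries exceeded all DMSO and 24 h libraries. TET2 rose by 0.76 ± 0.19 at 6 h (edgeR, adjusted p = 0.006856), was at 0.00 ± 0.20 at 24 h, and fell by 0.76 (± 0.20) between 6 h and 24 h (edgeR, adjusted p = 0.009148). The last call was lost without 24 h replicate 3 (adjusted p = 0.0526, edgeR) and in the compared groups alone. TET1 and TET3 were not called. TET1 averaged 0.73 to 1.94 CPM per group, close to the limit that a count of 0 allows.

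Among the ALKBH proteins, 2 that repair alkylated DNA moved in opposite directions at 6 h. ALKBH3 read 36.5, 37.6 and 31.5 CPM in wild type DMSO, 48.5, 63.3 and 49.5 at 6 h, and 39.0, 42.8 and 33.8 at 24 h. It rose by 0.61 ± 0.15 at 6 h with no overlap (edgeR, adjusted p = 0.005473), and fell by 0.48 (± 0.15) between 6 h and 24 h (edgeR, adjusted p = 0.03156). The later call was lost without 6 h replicate 2 or 24 h replicate 1 or 3 (adjusted p = 0.0606 to 0.149, edgeR) and in the compared groups alone. SEC14L1P1 overlaps ALKBH3 on the same strand at 1.03 to 4.69 CPM. ALKBH2 read 23.8, 25.9 and 30.0 CPM in DMSO, 21.6, 12.2 and 17.1 at 6 h, and 24.0, 24.0 and 23.3 at 24 h.

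ALKBH2 fell by 0.65 at 6 h (± 0.17, edgeR, adjusted p = 0.009355), its lowest library being replicate 2. Without that replicate the fall was 0.47 (adjusted p = 0.0526, edgeR), and the call was also lost without DMSO replicate 3 (adjusted p = 0.0526, edgeR) and in the compared groups alone. ALKBH1, ALKBH4, ALKBH5 and ALKBH8 were called in no comparison. ALKBH5 and FTO remove methyl groups from adenine in RNA. FTO had 107 counts in all, at most 1.88 CPM in a library, and was not tested.

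**Figure D4:**
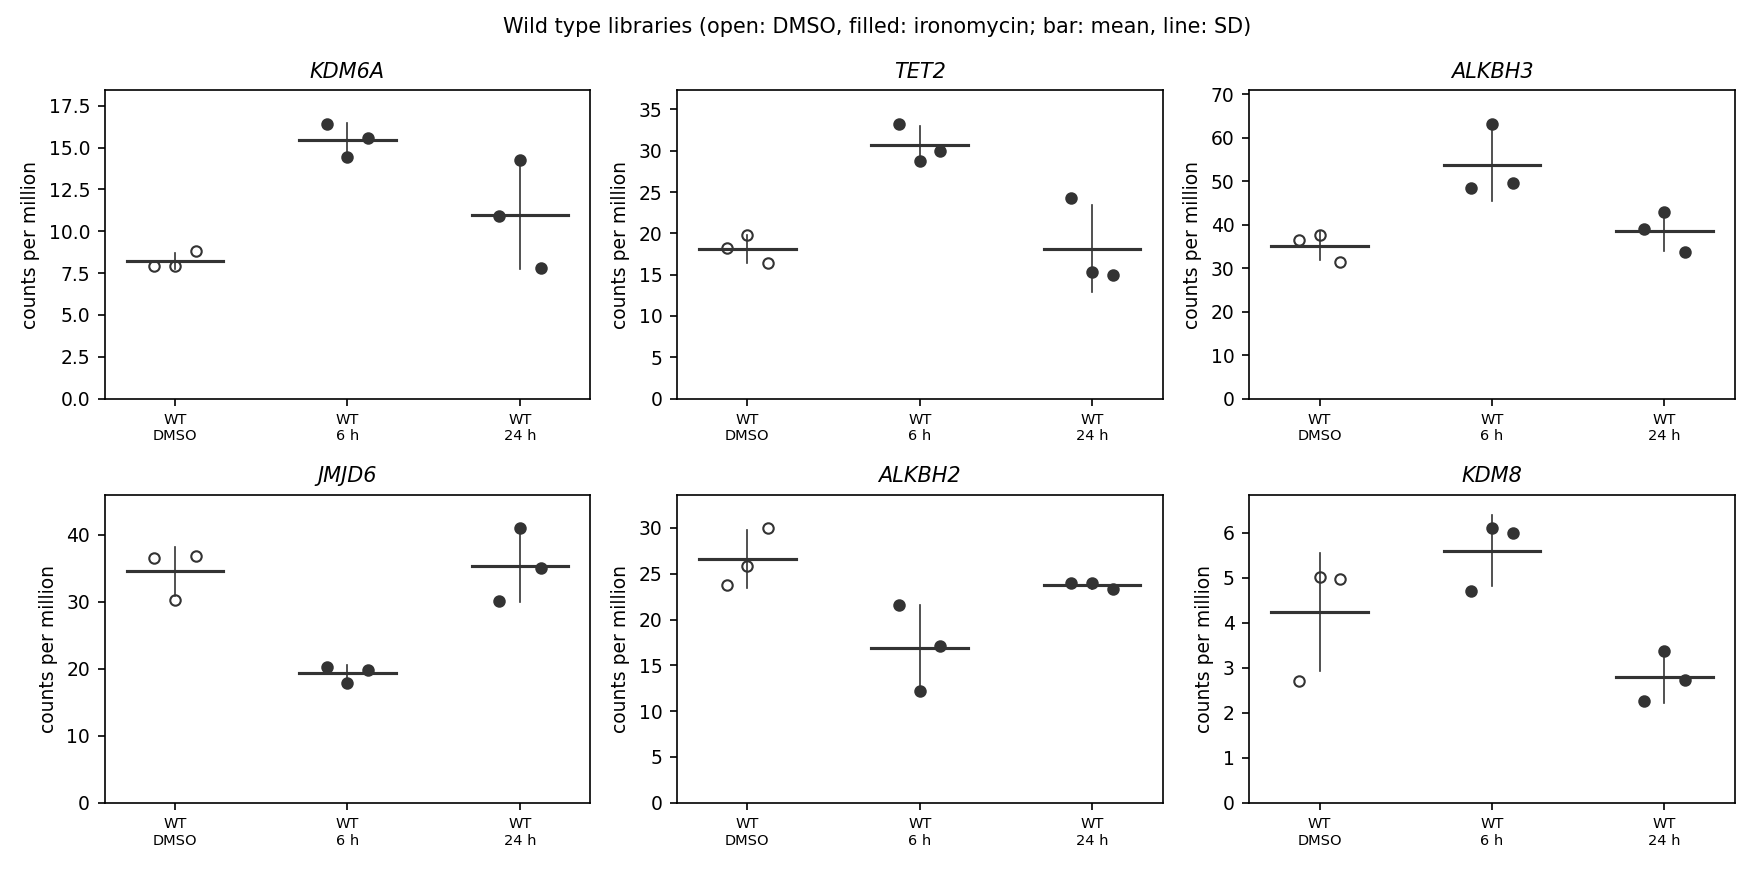
Level (CPM, linear axis from 0) of 6 genes that differed at 6 h or between 6 h and 24 h in wild type cells, 1 point per library, open for DMSO and filled for ironomycin, with the mean as a bar and the SD as a line. JMJD6 lay between 17.9 and 20.3 CPM at 6 h and between 30.2 and 41.1 CPM at the other times.

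No HIF hydroxylase was called in any comparison. HIF1AN, which hydroxylates an asparagine of HIF alpha subunits, read 43.9, 36.3 and 36.8 CPM in wild type DMSO, 38.6, 57.2 and 32.4 at 6 h, and 35.3, 37.1 and 32.5 at 24 h, with overlap at both times. NDUFB8 lies on the opposite strand of HIF1AN at 76.4 to 173 CPM. EGLN1, the main oxygen-sensing HIF prolyl hydroxylase, stood at 0.09 in wild type at 24 h, 0.60 in the HK2 knockout and 0.26 in the PGP knockout. Its HK2 knockout libraries read 8.48, 8.15 and 5.77 CPM in DMSO and 9.02, 8.32 and 16.3 at 24 h. The groups overlapped, and the value of 0.60 (edgeR, adjusted p = 0.07821) was 0.19 without 24 h replicate 3 and 0.78 without 24 h replicate 2 (edgeR, adjusted p = 0.0352). EGLN2 was between -0.21 and 0.27 in the same comparisons. EGLN3 had 1 count in all 21 libraries.

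The collagen-type prolyl and lysyl hydroxylases, with the membrane-bound P4HTM, had 4 tested genes. At 24 h, 1 rose in wild type (25.0%, against 29.8% of all genes called) and 1 in the HK2 knockout (25.0%, against 29.4%). In the PGP knockout 2 rose (50%, against 31.5%). None was called at 6 h, against 22.0% of all genes. Whether these shares differ from those of all genes was not tested, and 4 genes are few for such a comparison. The class median at 24 h was 0.44 in wild type, 0.59 in the HK2 knockout and 0.79 in the PGP knockout. With no low-count filter, which adds P4HA2 to make 5 genes, these medians were 0.402, 0.486 and 0.285. P4HTM (ENSG00000178467), a prolyl hydroxylase of the endoplasmic reticulum that can act on HIF, had the highest log2 fold change of the 37 genes at 24 h in wild type. It read 0.626, 1.25 and 0.829 CPM in DMSO, 1.07, 2.401 and 1.87 at 6 h, and 4.11, 4.17 and 3.30 at 24 h. These levels rest on 14, 26 and 58 counts summed over each group. In DMSO libraries of all genotypes P4HTM read 0.535 to 2.01 CPM, too low for the low-count filter, which it passed through ironomycin libraries. Its rank among the 37 genes therefore depends on libraries in which it was high.

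All 24 h libraries of P4HTM lay above all DMSO and 6 h libraries, and the rise was 2.07 ± 0.46 (edgeR, adjusted p = 0.001307). In the PGP knockout it went from 0.535, 1.70 and 0.658 CPM to 5.65, 2.56 and 6.82, a rise of 2.32 ± 0.45 (edgeR, adjusted p = 0.0003935). Without DMSO replicate 2 that rise was 3.02. In the HK2 knockout, where DMSO libraries read 2.01, 1.70 and 1.92 CPM and 24 h libraries 2.37, 4.79 and 3.07, it stood at 0.87 ± 0.41 (edgeR, adjusted p = 0.1215). Both calls held under each alternative setting run. Exons of P4HTM overlap WDR6 on the same strand, which was at 0 to 2.18 CPM.

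P4HA1 (ENSG00000122884), the catalytic subunit of collagen prolyl hydroxylase and a known HIF target, was called in the PGP knockout. Its promoter is shown because P4HA1 is in the list of HIF targets with KDM3A and KDM4B, and holds 1 match, to ACGTG read from the opposite strand.
P4HA1 (chr10:73096867-73097116, minus strand): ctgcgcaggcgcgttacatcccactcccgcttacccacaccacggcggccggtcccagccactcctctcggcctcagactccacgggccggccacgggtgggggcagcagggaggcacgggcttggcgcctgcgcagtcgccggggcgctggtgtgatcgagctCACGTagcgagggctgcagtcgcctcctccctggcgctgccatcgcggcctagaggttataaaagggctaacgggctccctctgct
In the PGP knockout P4HA1 went from 22.7, 21.5 and 19.5 CPM to 67.0, 45.1 and 44.03, a rise of 1.29 ± 0.30 (edgeR, adjusted p = 0.001737) that held under each alternative setting run. In wild type it read 23.4, 30.7 and 39.1 CPM in DMSO, 23.7, 8.95 and 34.3 at 6 h, and 41.5, 40.7 and 47.2 at 24 h. The 24 h libraries lay above the rest, and the value of 0.47 was not called (edgeR, adjusted p = 0.2297).

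Against 6 h, P4HA1 was 0.94 ± 0.29 higher at 24 h (edgeR, adjusted p = 0.02958). That value fell to 0.57 without the low 6 h replicate 2 (adjusted p = 0.109, edgeR), and the call was also lost without 6 h replicate 1, without any 1 of the 24 h libraries (adjusted p = 0.0515 to 0.0986, edgeR) and in the compared groups alone. In the HK2 knockout the value was 0.68 (edgeR, adjusted p = 0.08073), and it was called with no filter, with the replicate block, in the compared groups alone and without DMSO replicate 3 (adjusted p = 0.002176 to 0.0473, edgeR). The wild type value at 24 h was called in the compared groups alone (adjusted p = 0.0395, edgeR). PLOD1, a lysyl hydroxylase, was called in the HK2 knockout (27.9, 20.4 and 25.2 CPM to 38.5, 33.3 and 32.6; 0.51 ± 0.18, edgeR, adjusted p = 0.04031). The call was lost without DMSO replicate 2 or 3 or any 1 of the 24 h libraries (adjusted p = 0.0626 to 0.216, edgeR) and with no filter. PLOD1 was at 0.42 in wild type and 0.01 in the PGP knockout. PLOD3 was not called, and PLOD2 was listed at 0. P4HA2 had 72 counts in all and was not tested. Summed per group, wild type gave 19 counts with DMSO, 12 after 6 h and 6 after 24 h. The HK2 knockout gave 10 with DMSO and 5 after 24 h, and the PGP knockout 12 and 8.

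Of the OGFOD proteins and ASPH, OGFOD3 was called. It read 29.2, 33.2 and 29.03 CPM in wild type DMSO, 20.1, 28.2 and 16.9 at 6 h, and 24.2, 25.4 and 27.0 at 24 h. OGFOD3 fell by 0.49 at 6 h (± 0.18, edgeR, adjusted p = 0.04771), with no overlap. The call was lost without any 1 of the DMSO libraries or 6 h replicate 1 or 3 (adjusted p = 0.0818 to 0.211, edgeR), with no filter, and in the compared groups alone. In the PGP knockout it went from 29.2, 38.7 and 38.8 CPM to 21.8, 26.7 and 26.5, so that it fell by 0.51 (± 0.17, edgeR, adjusted p = 0.02844), a call lost without DMSO replicate 2 or 3 or 24 h replicate 1 (adjusted p = 0.0938 to 0.103, edgeR). It stood at -0.25 at 24 h in wild type and -0.43 in the HK2 knockout. HEXDC overlaps OGFOD3 on the opposite strand at 3.27 to 9.22 CPM. OGFOD1, an oxygenase of a ribosomal protein, and ASPH were not called, and OGFOD2 had 23 counts in all.

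**Figure D5:**
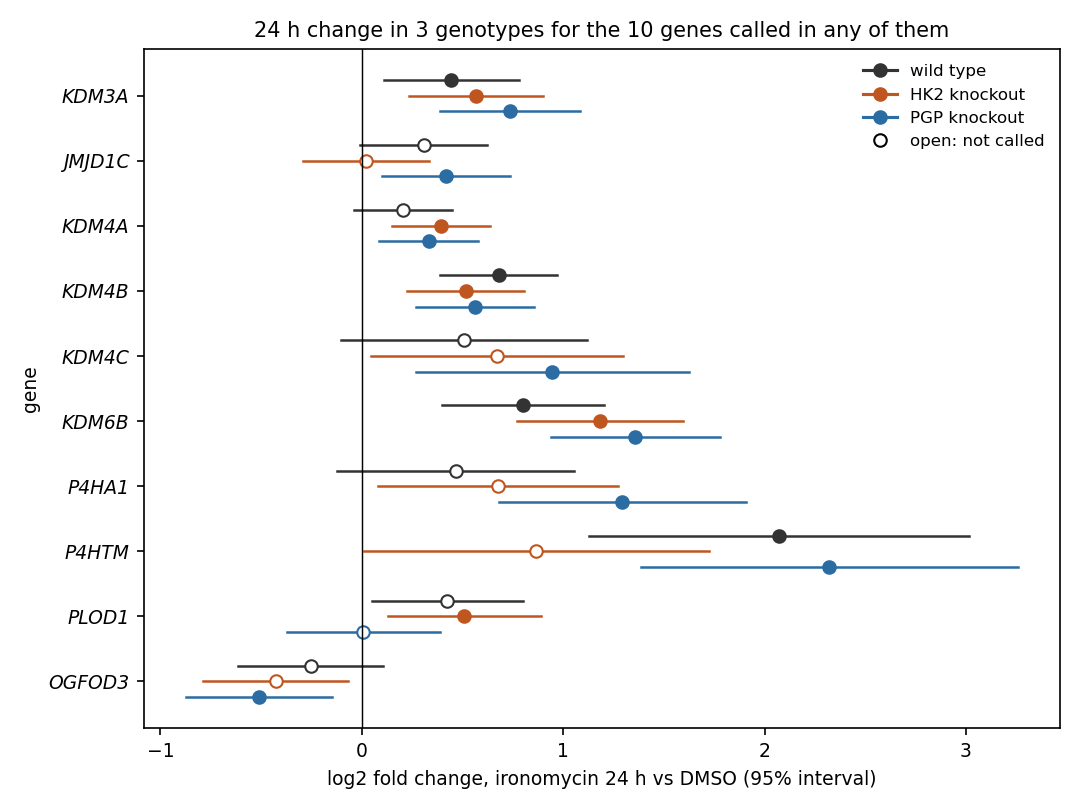
Log2 fold change at 24 h with its 95% interval (edgeR) in wild type, the HK2 knockout and the PGP knockout, for the 10 dioxygenase genes called at 24 h in at least 1 genotype, with filled points called and open points not called. KDM3A, KDM4B and KDM6B are filled in all 3 genotypes, and OGFOD3 is the 1 gene with a called fall.

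Differences between times and between genotypes were tested directly. From 6 h to 24 h in wild type, 2 dioxygenase genes rose (JMJD6 and P4HA1) and 3 fell (KDM8, TET2 and ALKBH3), which is 13.5% of the 37, against 16.6% of all genes (8.48% higher and 8.08% lower). The comparison has no DMSO pair at each time. In DMSO, edgeR called 0 of the 37 genes in the HK2 knockout against wild type (0.00861% of all genes) and 0 in the PGP knockout (0.0%). At an unadjusted p under 0.05 the first comparison had JMJD1C (0.33) and the second KDM2B (0.23), and DESeq2 called 0 in both.

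The difference between the 24 h response of a knockout and that of wild type was called by edgeR for 0 of the 37 genes in the HK2 knockout and 0 in the PGP knockout (0.0% of all genes in each). None had an unadjusted p under 0.05 in either comparison, and DESeq2 called 0. The intervals were wide. For KDM6B the response was 0.38 higher in the HK2 knockout (95% interval -0.19 to 0.96) and 0.56 higher in the PGP knockout (-0.03 to 1.14). For P4HA1 it was 0.83 higher in the PGP knockout (-0.02 to 1.68), and for P4HTM it was -1.20 in the HK2 knockout (-2.50 to 0.09). A gene called in 1 genotype and not in another is therefore not shown to differ between them.

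The surrounding pathway was read from lists of other genes. Of 10 tested genes named in further dioxygenase families, none was called at 6 h (against 22.0% of all genes). At 24 h in wild type 3 rose (30.0%, against 29.8%). Among the rises were ALKBH7, a mitochondrial relative of the ALKBH proteins (0.72 ± 0.12, edgeR, adjusted p = 8.092e-05), and P3H4 (2.08 ± 0.61, edgeR, adjusted p = 0.01136). P3H4 lay near the detection limit and likewise passed the low-count filter through ironomycin libraries. It belongs to a prolyl hydroxylase family by name, which need not mean that it is an active enzyme. Of 8 tested hydroxylase partners and iron-delivery genes, 2 fell at 6 h (25.0% called, against 22.0% of all genes). At 24 h in wild type 2 rose and 2 fell (50% called, against 29.8%). The falls included COLGALT1, a collagen galactosyltransferase (-0.73), and GLRX3, a glutaredoxin that carries iron-sulfur clusters (-0.57). Among 11 tested genes of HIF and its control, 2 rose and 1 fell at both times. That is 27.3% called, against 22.0% of all genes at 6 h and 29.8% at 24 h. HIF1A was called at 24 h in wild type (0.66 ± 0.16, edgeR, adjusted p = 0.00225), as was SIAH2, a ubiquitin ligase that targets the EGLN enzymes (0.66 ± 0.16, edgeR, adjusted p = 0.003107).

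Of 19 tested HIF target genes, 6 rose and 1 fell at 6 h (36.8% called, against 22.0% of all genes; median 0.33), and 11 rose and 3 fell at 24 h in wild type (73.7% called, against 29.8%; median 0.52, beside 0.03 over all genes). In the knockouts at 24 h, 10 rose and 3 fell in each (68.4% called). Over all genes 29.4% were called in the HK2 knockout and 31.5% in the PGP knockout. This list includes EGLN1, P4HA1, KDM3A and KDM4B, so it overlaps the dioxygenases. The glucose transporter gene SLC2A3 rose by 1.78 ± 0.15 (edgeR, adjusted p = 8.52e-09) and VEGFA, a growth factor of blood vessels, by 2.68 ± 0.27 (edgeR, adjusted p = 1.012e-07). One of the falls, LDHA (lactate dehydrogenase), is named after its values were seen: it fell by 1.17 (± 0.17, edgeR, adjusted p = 1.372e-05). PGK1 and ENO1, named likewise, also read lower at 24 h in wild type, with no overlap of libraries. PGK1 went from 440, 476 and 494 CPM to 257, 327 and 292. ENO1 went from 2647, 2816 and 2646 CPM to 1884, 2222 and 1944. Of 22 tested enzymes that make or use 2-oxoglutarate, succinate or fumarate, 2 rose and 1 fell at 6 h (13.6% called, against 22.0%). At 24 h in wild type 4 rose and 6 fell (45.5% called, against 29.8%), with a median of -0.19. The rises at 24 h included IDH1, which makes 2-oxoglutarate in the cytosol (0.77 ± 0.11, edgeR, adjusted p = 8.458e-06), and PSAT1, the serine pathway transaminase that releases it (0.89 ± 0.20, edgeR, adjusted p = 0.001238). IDH2 and FH, named after their values were seen, read lower at 24 h in wild type without overlap. IDH2 went from 337, 322 and 275 CPM to 223, 229 and 177. FH went from 125, 144 and 154 CPM to 82.6, 79.1 and 86.9. The supply of 2-oxoglutarate was not measured.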

How the data were processed

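The deposited table gives unnormalized read counts for each Ensembl gene in 21 libraries, per the labels made with a QuantSeq 3′ kit from RNeasy total RNA. Per the submitters' processing notes, bcl2fastq 2.20.0.422, HISAT2 and HTSeq were used, with hg19. The annotation release and strand setting are not given in the sources used here, so the authors' counts of overlapping and antisense genes are uncertain: exons of 23 of the 44 dioxygenase genes overlap another gene in GENCODE 29, 7 on the same strand.

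Genes had to pass filterByExpr over the groups (a count of 10, a total of 15). After TMM scaling, 1 quasi-likelihood model with a mean per group was fitted to all libraries (edgeR 4.0.16, limma 3.58.1, R 4.3.3). Adjusted p-values (Benjamini-Hochberg) cover all 11610 genes tested, in 9 comparisons. SE is the log2 fold change divided by the square root of F. Tables and figures used Python 3.11.15, pandas 2.3.3, numpy 2.4.6, scipy 1.17.1 and matplotlib 3.10.9. The code was tested on simulated data.

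The dioxygenase genes, their 7 classes and the 8 lists of other genes were chosen with earlier results of these data known. Dioxygenase genes called in wild type were given in every wild type library, up to 4 per class (and KDM3A, which the knockouts also call), or, in a class with no call, the gene of highest mean. Those called in a knockout were named, and of each other list up to 2 called at 24 h in wild type with the smallest adjusted p. Alternatives were a fit of the compared groups alone, DESeq2 1.42.0, each library left out, RLE size factors, a replicate block, and no low-count filter. The labels do not say what replicate numbers mark. The main fit did not pair libraries in any comparison. In the PGP knockout, same-numbered DMSO and 24 h libraries deviated together from their groups (correlations 0.243, 0.164 and 0.247). Calls with the replicate block are therefore given beside the main, unpaired ones there, on the data alone. Promoters of 40 of the 44 genes were matched in a RefSeq table (GRCh38.p14).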

Additional observations from a re-analysis of the deposited data

Results flagged for a closer look

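In wild type cells the effect of ironomycin differed between 6 h and 24 h for 5 dioxygenase genes, by edgeR's test of 24 h against 6 h. The 24 h effect minus the 6 h effect was 0.87 (log2) for JMJD6 and 0.94 for P4HA1, which stood lower at 6 h. It was -1.002 for KDM8, -0.48 for ALKBH3 and -0.76 for TET2, which stood higher at 6 h. JMJD6 kept its call under each alternative setting run, and the others lost theirs under some.

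HIF1AN lay on opposite sides of DMSO in 2 genotypes at 24 h. Its wild type level averaged 39.0 CPM with DMSO and 35.0 with 24 h of ironomycin (-0.16), and its HK2 knockout level 34.4 CPM and 38.01 (0.14). All 24 h libraries lay on that side of their DMSO mean, a pattern that is itself no test, and edgeR's test of the difference in response did not call it.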

How the results depend on the processing

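Of 32 calls of a dioxygenase gene in a comparison, 17 held under each alternative setting and 15 were lost under some. None changed direction. The number of dioxygenase genes called from 6 h to 24 h was 5 and became 1 in the compared groups alone and 1 to 5 on leaving out a library (1 without 24 h replicate 3, 2 without 24 h replicate 1). In the HK2 knockout it was 5 and became 9 with the replicate block (7 higher, 2 lower) and 3 to 6 on leaving out a library, the lowest without 24 h replicate 2. In the other 7 comparisons the number stayed within 1.5 times. The replicate block gave 11 at 6 h, 4 at 24 h in wild type, 7 from 6 h to 24 h and 11 in the PGP knockout. It lost no call. Outside the PGP knockout comparison, correlations of same-numbered libraries ran from -0.0394 to 0.347 and were not over 0.1 in every pair.

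Over all genes, the compared groups alone gave 1212 calls at 6 h instead of 2556, and 749 from 6 h to 24 h instead of 1922, which was 1271 without wild type 24 h replicate 3. The HK2 knockout in DMSO went from 1 to 59 with no filter, 23 in DESeq2, 19 with the block, 17 alone and 0 to 8 on leaving out a library. The PGP knockout in DMSO went from 0 to 96, 5 and 2 with no filter, in DESeq2 and alone. The differences in response went from 0 to 17 (HK2) and 18 (PGP) with no filter, and to 1 alone (PGP). The cause was not tested. RLE size factors changed the median over all genes by less than 0.1, and directions were read without an offset. Both TMM and RLE take most genes as unchanged, so their closeness cannot show whether RNA shifted as a whole. Such a shift was not tested. In these libraries of 3829274 to 6069264 counts, 7 dioxygenase genes did not pass the low-count filter, 2 of them at 0 throughout, for which the cause was not tested.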

Other observations

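Enzymes that place methyl marks were read from separate lists. Of 25 tested histone methyltransferases, none rose at 24 h and 5 fell in wild type (20.0% called, against 29.8% of all genes; median -0.09), with 3 falls in the HK2 knockout, and 2 rises and 6 falls in the PGP knockout. At 6 h 2 rose and 2 fell. NSD2, which methylates histone H3 along transcribed genes, fell by 1.04 at 24 h (± 0.10, edgeR, adjusted p = 7.439e-08), and EZH2, the Polycomb enzyme, fell by 0.85 (± 0.12, edgeR, adjusted p = 7.098e-06). Among 13 tested DNA and RNA methyltransferases, none rose and 4 fell in wild type at 24 h (30.8% called, against 29.8% of all genes). In the HK2 knockout 5 fell (38.5%, against 29.4%) and in the PGP knockout 4 (30.8%, against 31.5%), with no rises. TRMT61A, a transfer RNA methyltransferase, fell by 0.89 (± 0.21, edgeR, adjusted p = 0.00231), and METTL16, an RNA adenine methyltransferase, by 0.51 (± 0.12, edgeR, adjusted p = 0.002887).

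Of 8 tested genes for the FAD-dependent histone demethylases, which need no iron, and their partners, 2 rose at 6 h (25.0% called, against 22.0%). At 24 h in wild type 2 rose and 1 fell (37.5% called, against 29.8% of all genes). PHF21A, a histone reader of that complex, was 1.08 higher at 6 h and 1.22 ± 0.19 higher at 24 h (edgeR, adjusted p = 4.161e-05). HDAC2, the deacetylase of the complex, fell by 0.50 (± 0.10, edgeR, adjusted p = 0.0006624).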
